A study of Mus musculus with 15 samples.

Results

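The 35 genes described here encode the enzymes that bring pyruvate into the mitochondrion, the enzymes of the tricarboxylic acid (TCA) cycle, and the enzymes that join the cycle to malate, aspartate, glutamate and cytosolic citrate. They were taken by symbol from a list of enzyme names drawn up with earlier results of these data known, though no measured value enters the rule itself, and all 35 were found among 46102 genes in each deposited table. RNA was sequenced from 15 libraries of 100 sorted hematopoietic stem cells (HSCs) each, which maintain themselves in the marrow and supply every blood lineage. All libraries came from bone marrow of wild type C57BL/6 mice aged 8 to 10 weeks. The 4 groups were Untreated (n = 4), 5-FU day4 (n = 4), Control (n = 3) and Nifedipine (n = 4). Untreated and 5-FU day4 cells were taken from mice, the latter 4 days after 5-fluorouracil (5-FU), an antimetabolite toxic to cycling cells, after which the surviving HSCs divide. Control and Nifedipine cells were cultured, without and with nifedipine, a dihydropyridine blocker of L-type calcium channels, and only cells that had passed through at most 3 divisions were sorted. The labels state neither doses nor culture length, nor whether the libraries of a group came from separate animals or cultures. The p-values therefore measure only the spread between these libraries, which may be technical.

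Pyruvate, the end product of glycolysis, crosses the inner mitochondrial membrane through a carrier built from Mpc1 and Mpc2. The pyruvate dehydrogenase (PDH) complex then turns it into acetyl-CoA, unless a PDH kinase has switched the complex off by phosphorylation, and a PDH phosphatase switches it on again. Acetyl-CoA enters the cycle at citrate synthase, and the cycle passes its electrons to the respiratory chain while also supplying carbon for aspartate, nucleotides and lipids. Quiescent HSCs are known for a low use of mitochondrial respiration, and the PDH kinases Pdk2 and Pdk4 have been described as holding back pyruvate oxidation in their mitochondria.

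Upstream sequences of 4 members are shown because 3 of them encode subunits of 1 complex and rose together after 5-FU, while the last, Pdk2, fell. The sequences come from RefSeq (assembly GRCm38.p6) and are the 250 bases before the annotated start, read 5′ to 3′ on the gene's strand. The succinate dehydrogenase genes are Sdha at chr13:74350241-74350490 (minus strand), Sdhb at chr4:140961021-140961270 (plus strand) and Sdhd at chr9:50603850-50604099 (minus strand). For Pdk2 the outer of its annotated starts is shown, at chr11:95041372-95041621 (minus strand). Capitals mark matches on either strand to 5 motifs, which are CACGTG (E-box), the NRF1 motif, CCGGAAG (ETS family), AAGGTCA (estrogen-related receptors) and CCAAT (NF-Y).
Sdha: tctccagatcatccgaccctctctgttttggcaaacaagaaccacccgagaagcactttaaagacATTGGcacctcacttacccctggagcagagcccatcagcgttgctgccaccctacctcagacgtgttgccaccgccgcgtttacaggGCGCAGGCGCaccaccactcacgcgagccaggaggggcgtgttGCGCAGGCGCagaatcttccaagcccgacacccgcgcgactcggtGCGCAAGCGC
Sdhb: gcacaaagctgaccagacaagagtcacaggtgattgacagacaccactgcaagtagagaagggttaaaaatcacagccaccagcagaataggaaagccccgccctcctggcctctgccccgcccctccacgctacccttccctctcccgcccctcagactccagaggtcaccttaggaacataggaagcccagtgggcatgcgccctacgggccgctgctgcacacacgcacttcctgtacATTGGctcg
Sdhd: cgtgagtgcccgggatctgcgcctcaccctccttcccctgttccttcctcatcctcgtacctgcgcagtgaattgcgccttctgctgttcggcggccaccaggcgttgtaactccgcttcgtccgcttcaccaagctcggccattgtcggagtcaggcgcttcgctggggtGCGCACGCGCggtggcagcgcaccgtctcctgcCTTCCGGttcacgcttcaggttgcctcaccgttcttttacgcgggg
Pdk2: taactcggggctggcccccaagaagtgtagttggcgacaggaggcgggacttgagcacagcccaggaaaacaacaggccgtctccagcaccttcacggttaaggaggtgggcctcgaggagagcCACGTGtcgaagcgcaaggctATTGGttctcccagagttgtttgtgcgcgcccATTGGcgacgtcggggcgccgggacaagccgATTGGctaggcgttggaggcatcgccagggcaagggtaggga
The Sdha stretch held 3 NRF1 matches and 1 CCAAT match, the Sdhb stretch 1 CCAAT match, and the Sdhd stretch 1 NRF1 and 1 ETS match. The Pdk2 stretch held 1 E-box and 3 CCAAT matches. No overlap between matches occurred in these 4 stretches. The 250 bases before another annotated Pdk2 start, at chr11:95040876-95041125, held no match to any of the 5 motifs. For the shares over many genes the window also took in the 50 bases after the start, and 31 of the 35 members matched the promoter table, with 41 windows. CCAAT was found in 63.4% of the member windows and in 37.4% of all 32851 windows. CCGGAAG was found in 17.1% against 8.86%, CACGTG in 12.2% against 7.15%, the NRF1 motif in 9.76% against 4.60%, and AAGGTCA in 7.32% against 4.72%. The 4 NRF1 windows belonged to Dld, Sucla2, Sdha and Sdhd. These shares count windows, and 1 gene can hold several, such as Ogdh with overlapping ones. Of the 31 members, 20 had a window with CCAAT, 7 with CCGGAAG, 3 with CACGTG and 3 with AAGGTCA. A match is a description of the letters and not a measured binding site. Idh3a, Pdp1, Sdhc and Me2 had no entry in the promoter table.

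Libraries held between 6171730 and 16685285 exon reads in Untreated, between 9775640 and 17397392 after 5-FU, between 20145079 and 26673045 in Control and between 17582453 and 22372771 with nifedipine. The fewest reads of any member in a library were 20, for Pcx. Exon reads made up 25.0% to 26.3% of the read total behind the deposited RPKM values in Untreated, 30.0% to 31.9% after 5-FU, 35.5% to 38.9% in Control and 31.8% to 38.4% with nifedipine. All 10 HSC-defining marker genes had reads in every group, with a summed level of 4575 to 4891 CPM, which are exon read counts scaled to a common library size, in Untreated, 3197 to 3452 after 5-FU, 1428 to 1496 in Control and 2228 to 2501 with nifedipine. Libraries Untreated 2 and Untreated 4 stood apart by their erythroid markers, at 1918 and 2136 CPM over 10 genes, where the other 13 libraries lay between 74.7 and 346. Untreated 2 also had the highest sum of 7 endothelial and stromal markers, 1632 CPM. Untreated 3 had the highest sum of 12 genes of dividing cells within its group, 692 CPM.

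In the Untreated HSCs, levels per kilobase of exon covered a range from 0.84 CPM for Pcx, pyruvate carboxylase, to 104 for Sdha, the flavoprotein subunit of succinate dehydrogenase. After Sdha came Mdh1, the cytosolic malate dehydrogenase, at 97.6 and Idh3b, a non-catalytic subunit of the NAD-dependent isocitrate dehydrogenase, at 70.4. The catalytic subunit of that enzyme, Idh3a, stood at 24.3, and the other non-catalytic subunit, Idh3g, at 56.1. Subunits of other complexes also differed in level, with Sdhc at 18.7 against 104 for Sdha, and Dlat at 10.7 against 62.5 for Pdha1. Among the PDH kinases, Pdk3 was the most abundant at 45.3, followed by Pdk1 at 20.3 and Pdk2 at 9.46. In Control, Mdh2, the mitochondrial malate dehydrogenase, was the highest of the 35 at 218, above Sdha at 206. Sdha was the highest in the other 3 groups, at 142 after 5-FU and 156 with nifedipine. Pcx was the lowest in every group, at 1.11 in Control, next to Pdk2 at 1.15.

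**Figure D1:**
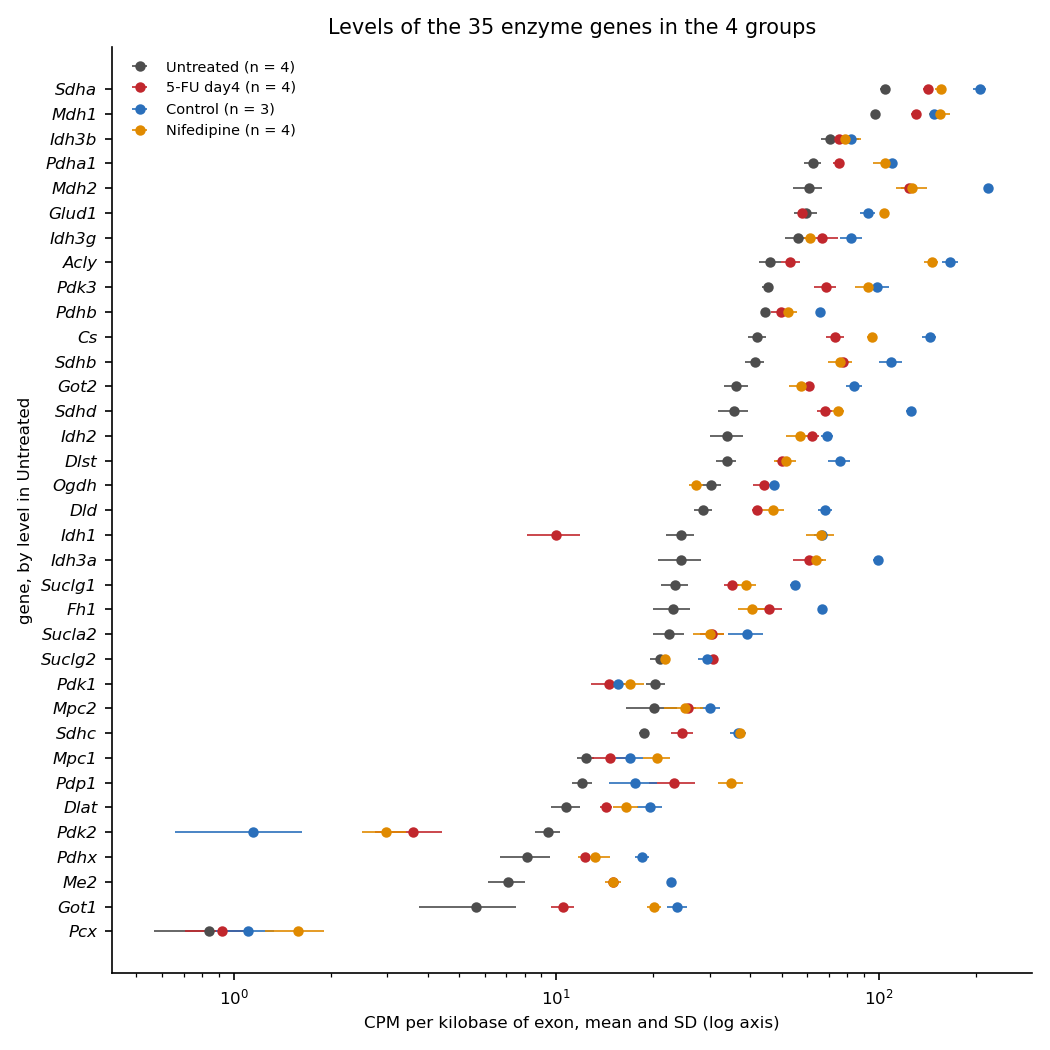
Mean CPM per kilobase of exon (log axis, bars show 1 SD) of each gene in Untreated (n = 4), 5-FU day4 (n = 4), Control (n = 3) and Nifedipine (n = 4), ordered by the Untreated level. In 24 of the 35 genes Untreated is the lowest point and Control the highest, and Pdk1 and Pdk2 are highest in Untreated. This order was not counted over all genes.

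By group means, Control was the highest group for 26 members, Nifedipine for 6, Untreated for 2 (Pdk1 and Pdk2) and 5-FU day4 for 1 (Suclg2). Untreated was the lowest group for 30 members, 5-FU day4 for 3 (Pdk1, Idh1 and Glud1), Control for Pdk2 and Nifedipine for Ogdh. In 27 members the Control mean lay above Untreated and the Nifedipine mean below Control, and in 26 of these the Nifedipine mean stayed above Untreated. Ogdh was the exception. Neighbouring groups in these orders often overlapped: of the 24 members with Untreated lowest and Control highest, the 5-FU day4 and Nifedipine libraries overlapped in 17. These orders were not counted over all genes. In 36.3% of all genes tested every Control library lay above every Untreated library. In 25.5% every Nifedipine library lay below every Control library. Culture cannot be told apart here from any other difference between the fresh and the cultured experiments. Spread between the libraries of a group was small, with a median coefficient of variation over the 35 genes of 7.93% in Untreated, 5.63% after 5-FU, 5.40% in Control and 8.03% with nifedipine. Within Untreated, library 3 held the highest value for 22 of the 35 members and library 4 the lowest for 16. Within Nifedipine, library 2 held the lowest value for 22.

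After 5-FU the enzymes of pyruvate oxidation and of the cycle rose almost throughout. Of the 35 members, 29 rose and 3 fell, and 3 did not pass the test (edgeR's quasi-likelihood test, adjusted over all genes, called at 0.05 or less). Over all 13382 genes tested, 26.8% were called higher and 23.8% lower, 50.5% in all. The median log2 fold change was 0.57 over the members and -0.02 over all genes. In 25 members every 5-FU library lay above every Untreated library, and in 3 every one lay below, where 25.8% and 21.5% of all genes tested did so (47.3% in all). All 9 members of the steps from succinyl-CoA to oxaloacetate rose, as did 6 of the 7 from citrate to succinyl-CoA, 9 of the 12 of pyruvate entry and 5 of the 7 of the side reactions and citrate export. The 3 that fell were Pdk1, Pdk2 and Idh1.

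The pyruvate carrier subunits had small changes, with log2 fold changes of 0.28 (SE 0.10) for Mpc1 and 0.38 (SE 0.14) for Mpc2. The parts of the PDH complex rose by 0.19 (Pdhb, SE 0.07) to 0.61 (Pdhx, SE 0.13), with Dld, the dehydrogenase shared with the alpha-ketoglutarate dehydrogenase complex, at 0.59 (SE 0.06). Pdha1, the catalytic subunit that the kinases phosphorylate, was measured at 185, 163, 187 and 179 CPM in Untreated and at 210, 225, 206 and 218 after 5-FU. These groups did not overlap, and the log2 fold change was 0.29 (SE 0.06, edgeR adjusted p = 0.00168). Pcx, which makes oxaloacetate from pyruvate, had a log2 fold change of 0.15 (SE 0.31, edgeR adjusted p = 0.718) and was not called.

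The regulators of the PDH complex did not move together. Pdk2 stood at 25.4, 22.5, 23.6 and 27.6 CPM in Untreated and at 9.45, 8.50, 7.25 and 12.4 after 5-FU. Every 5-FU library was far below every Untreated library, and the log2 fold change was -1.37 (SE 0.17, edgeR adjusted p = 8.28e-05). Pdk1 was measured at 126, 115, 124 and 135 CPM in Untreated and at 96.7, 97.1, 90.9 and 73.9 after 5-FU, again without overlap (log2 fold change -0.45, SE 0.09, edgeR adjusted p = 0.00172). Pdk3, another isoform of the kinase, rose. It was measured at 87.9, 91.9, 95 and 87.1 CPM in Untreated and at 141, 148, 124 and 134 after 5-FU (log2 fold change 0.62, SE 0.07, edgeR adjusted p = 3.37e-05). Pdp1, a catalytic subunit of PDH phosphatase, which undoes the kinases' action, was measured at 52.5, 55.3, 47.8 and 56.0 CPM in Untreated and at 107, 121, 98.0 and 81.8 after 5-FU. All 4 treated libraries lay above the untreated ones (log2 fold change 0.98, SE 0.11, edgeR adjusted p = 5.28e-05). Pdp2, a further PDH phosphatase that is not among the members, fell without overlap (log2 fold change -0.30, SE 0.08, edgeR adjusted p = 0.0104).

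**Figure D2:**
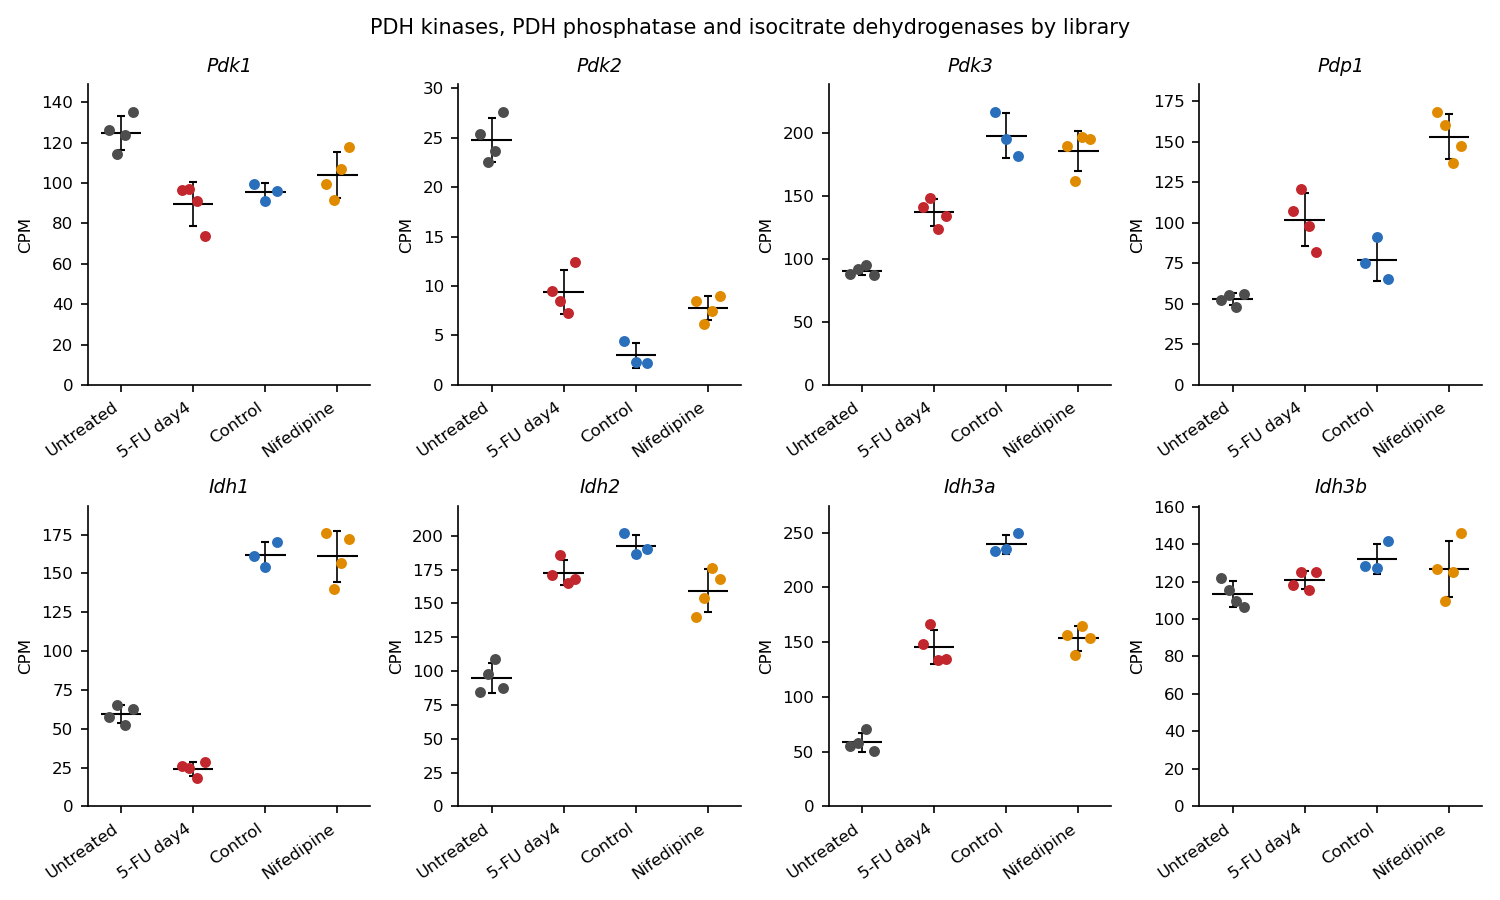
CPM of the PDH kinases Pdk1, Pdk2 and Pdk3, a PDH phosphatase (Pdp1) and 4 isocitrate dehydrogenase genes in each library (points), with the group mean and 1 SD (lines and bars). Pdk2 is highest in Untreated and lowest in Control, and Idh1 is lowest after 5-FU and highest in both cultured groups.

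In the oxidative steps from citrate to succinyl-CoA, Cs, citrate synthase, was measured at 112, 116, 129 and 118 CPM in Untreated and at 224, 210, 191 and 204 after 5-FU (log2 fold change 0.83, SE 0.07, edgeR adjusted p = 8.06e-06). Idh3a had the largest rise of the 35 members. It went from 54.8, 57.7, 71.1 and 50.4 CPM in Untreated to 149, 167, 134 and 135 after 5-FU, with no overlap (log2 fold change 1.34, SE 0.11, edgeR adjusted p = 9.22e-06). Its partner subunits changed little: Idh3g had a log2 fold change of 0.28 (SE 0.09), and Idh3b one of 0.12 (SE 0.06, edgeR adjusted p = 0.108) that was not called. Idh3b was measured at 122, 116, 110 and 106 CPM in Untreated and at 118, 125, 116 and 125 after 5-FU, with overlapping groups. The components of the alpha-ketoglutarate dehydrogenase complex rose alike, Ogdh by 0.57 (SE 0.07) and Dlst by 0.60 (SE 0.06) on the log2 scale.

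The NADP-dependent isocitrate dehydrogenases moved in opposite directions. Idh2, the mitochondrial enzyme, was measured at 84.4, 97.5, 109 and 87.4 CPM in Untreated and at 171, 186, 165 and 168 after 5-FU (log2 fold change 0.90, SE 0.08, edgeR adjusted p = 1.61e-05). Idh1, the cytosolic enzyme, was measured at 57.3, 65.3, 52.1 and 62.9 CPM in Untreated and at 25.7, 24.9, 18.1 and 28.7 after 5-FU. No 5-FU library reached the lowest Untreated one (log2 fold change -1.26, SE 0.14, edgeR adjusted p = 4.20e-05).

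From succinyl-CoA to oxaloacetate, the subunits of succinyl-CoA ligase rose by 0.48 (Sucla2, the ADP-forming subunit, SE 0.10), 0.58 (Suclg2, the GDP-forming subunit, SE 0.06) and 0.61 (Suclg1, the shared subunit, SE 0.09) on the log2 scale. Succinate dehydrogenase, which also serves as a complex of the respiratory chain, rose in all 4 subunits but by unequal amounts. The log2 fold changes were 0.47 (SE 0.04) for Sdha, 0.93 (SE 0.07) for Sdhb, the iron-sulfur subunit, 0.42 (SE 0.09) for Sdhc and 0.96 (SE 0.09) for Sdhd, the last being membrane anchors. Sdhb was measured at 44.4, 43.7, 48.7 and 41.3 CPM in Untreated and at 84.1, 85.8, 78.0 and 85.3 after 5-FU. Sdhd was measured at 50.3, 41.8, 49.2 and 41.3 CPM in Untreated and at 90.9, 89.0, 80.7 and 88.5 after 5-FU. Sdha was measured at 298, 312, 294 and 289 CPM in Untreated and at 392, 415, 417 and 399 after 5-FU. All 3 genes had no overlap between the groups. Fh1, fumarase, stood at 40.2, 34.4, 43.0 and 32.5 CPM in Untreated and at 78.8, 81.5, 72.3 and 65.5 after 5-FU (log2 fold change 1.01, SE 0.11, edgeR adjusted p = 3.52e-05). Mdh2 was measured at 76.0, 76.2, 88.8 and 69.6 CPM in Untreated and at 165, 167, 150 and 152 after 5-FU (log2 fold change 1.06, SE 0.08, edgeR adjusted p = 5.55e-06).

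Among the side reactions, Me2, the mitochondrial malic enzyme that turns malate into pyruvate, was measured at 60.2, 53.7, 62.1 and 45.9 CPM in Untreated and at 117, 120, 119 and 115 after 5-FU (log2 fold change 1.11, SE 0.09, edgeR adjusted p = 7.90e-06). The aspartate aminotransferases, which exchange amino groups between glutamate and aspartate, rose by 0.77 (Got2, mitochondrial, SE 0.06) and 0.91 (Got1, cytosolic, SE 0.21) on the log2 scale. Mdh1 was measured at 190, 184, 199 and 192 CPM in Untreated and at 268, 254, 247 and 253 after 5-FU (log2 fold change 0.45, SE 0.05, edgeR adjusted p = 4.02e-05). Acly, which splits exported citrate into acetyl-CoA for lipid synthesis, was measured at 191, 210, 224 and 193 CPM in Untreated and at 228, 256, 241 and 219 after 5-FU, with overlap (log2 fold change 0.23, SE 0.07, edgeR adjusted p = 0.0171). Glud1, glutamate dehydrogenase, which feeds glutamate carbon into the cycle, was not called. Its levels were 180, 178, 210 and 184 CPM in Untreated and 184, 178, 186 and 182 after 5-FU (log2 fold change -0.01, SE 0.06, edgeR adjusted p = 0.882).

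With Untreated 2 and Untreated 4 left out, 25 members rose and 3 fell, and the median log2 fold change was 0.50. In the edgeR fit, the calls of Mpc1, Mpc2, Pdhb, Idh3g and Acly depended on single libraries. Leaving out 1 of 6 libraries ended the call of Mpc1 (Untreated 1, 3 or 4, or 5-FU day4 1, 2 or 3, adjusted p from 0.0537 to 0.127) and of Mpc2 (Untreated 1, 2 or 3, or 5-FU day4 1, 3 or 4, adjusted p from 0.0642 to 0.0934). Leaving out Untreated 1, 3 or 4 or 5-FU day4 2 or 3 ended the edgeR call of Pdhb (adjusted p from 0.0640 to 0.0933), Untreated 1 or 4 or 5-FU day4 1 or 2 that of Idh3g (0.0742 to 0.0841), and Untreated 1 that of Acly (0.0520). A length and GC correction in edgeR also ended the calls of Mpc1, Mpc2, Pdhb, Idh3g and Sdhc (adjusted p from 0.0691 for Mpc1 to 0.999 for Pdhb), and with library size set to the read total behind the RPKM values Idh3b and Glud1 were called higher (edgeR adjusted p = 0.00204 and 0.0468). The 12 genes of dividing cells summed to 157 to 692 CPM in Untreated and to 2687 to 3139 after 5-FU, and exon shares of the read total did not overlap between these groups. The HSC-defining, megakaryocyte (58.1 to 70.4 against 31.9 to 50.8 CPM) and granulocyte, monocyte and macrophage sums (149 to 187 against 129 to 141 CPM) were lower after 5-FU without overlap, and the erythroid, lymphoid and endothelial and stromal sums overlapped. Their part in the change of the members was not tested. In bulk libraries, fewer cells of a type and less RNA per cell cannot be told apart.

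**Figure D3:**
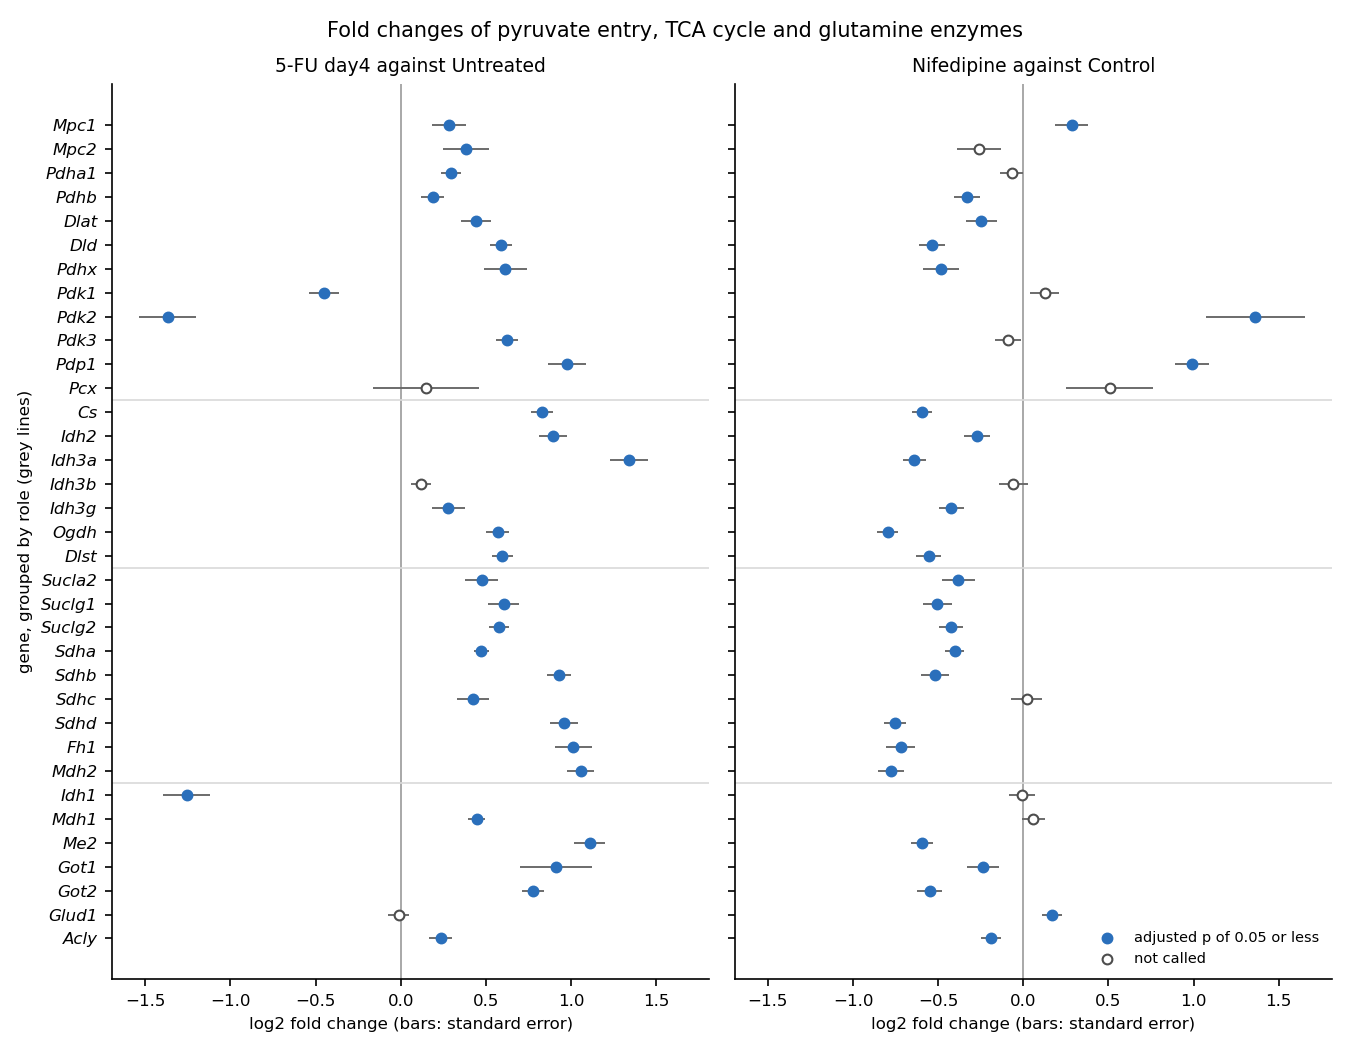
Log2 fold changes of the 35 genes with their standard errors, 5-FU day4 against Untreated on the left and Nifedipine against Control on the right (filled points have an edgeR adjusted p of 0.05 or less). The 16 cycle genes between the first and the last grey line lie right of 0 on the left and, Sdhc apart, left of 0 on the right, and Pdp1 lies right of 0 in both.

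With nifedipine in culture, most members were lower than in Control. Of the 35, 22 fell, 4 rose and 9 were not called by edgeR, against 24.2% lower and 25.8% higher among the 12805 genes tested (49.9% in all). The median log2 fold change was -0.33 over the members and 0.02 over all genes. In 21 members every Nifedipine library lay below every Control library, and in 5 every one lay above, where 25.5% and 25.8% of all genes did so on the scale of this comparison (51.2% in all). For Pcx, 1 of those 5, the CPM scaled over all 15 libraries overlapped, at 5.57 in the lowest Nifedipine and 5.58 in the highest Control library. In the steps from citrate to succinyl-CoA 6 of 7 fell, and from succinyl-CoA to oxaloacetate 8 of 9 fell. Pyruvate entry was mixed, with 3 of 12 higher and 4 lower, and among the side reactions 1 of 7 rose and 4 fell.

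The pyruvate regulators held the largest rises. Pdk2 was measured at 4.48, 2.29 and 2.24 CPM in Control and at 8.44, 6.20, 7.50 and 8.96 with nifedipine (log2 fold change 1.36, SE 0.29, edgeR adjusted p = 0.000737). Its groups did not overlap, and Control 1 was well above the other Control libraries. Pdp1, which acts against the kinases, rose too, from 75.1, 91.2 and 65.4 CPM in Control to 168, 160, 137 and 147 with nifedipine (log2 fold change 0.99, SE 0.10, edgeR adjusted p = 2.73e-07). The further phosphatase Pdp2, not a member, fell without overlap (log2 fold change -0.43, SE 0.09, edgeR adjusted p = 0.000515). Pdk1 and Pdk3 were not called. Pdk1 was measured at 99.5, 90.9 and 96.0 CPM in Control and at 99.7, 91.5, 107 and 118 with nifedipine (log2 fold change 0.12, SE 0.08, edgeR adjusted p = 0.24), and Pdk3 had a log2 fold change of -0.09 (SE 0.08, edgeR adjusted p = 0.361).

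In pyruvate import, Mpc1 was measured at 54.1, 50.7 and 61.1 CPM in Control and at 66.7, 62.0, 63.9 and 76.6 with nifedipine, without overlap (log2 fold change 0.28, SE 0.10, edgeR adjusted p = 0.0194). Mpc2 had a log2 fold change of -0.26 (SE 0.13, edgeR adjusted p = 0.104) and was not called. Within the PDH complex, Dld, Pdhx, Pdhb and Dlat fell by 0.54, 0.48, 0.33 and 0.25 on the log2 scale. Pdha1 was not called, at 324, 301 and 314 CPM in Control and 318, 263, 301 and 311 with nifedipine (log2 fold change -0.07, SE 0.07, edgeR adjusted p = 0.433).

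Ogdh had the largest fall of the members. It was measured at 334, 351 and 354 CPM in Control and at 185, 198, 206 and 208 with nifedipine (log2 fold change -0.80, SE 0.06, edgeR adjusted p = 8.76e-09). All Nifedipine libraries lay far below Control and within or just below the Untreated range of 202 to 242. Its partner Dlst fell by 0.55 (SE 0.07). Cs was measured at 418, 383 and 418 CPM in Control and at 266, 260, 268 and 280 with nifedipine (log2 fold change -0.60, SE 0.06, edgeR adjusted p = 1.68e-07). Idh3a was measured at 233, 236 and 249 CPM in Control and at 156, 139, 165 and 153 with nifedipine (log2 fold change -0.64, SE 0.07, edgeR adjusted p = 4.36e-07), again with no overlap. Idh3b, by contrast, stood at 128, 127 and 141 CPM in Control and 127, 109, 125 and 146 with nifedipine and was not called (log2 fold change -0.06, SE 0.09, edgeR adjusted p = 0.594). Idh2 was measured at 202, 186 and 190 CPM in Control and at 140, 154, 176 and 168 with nifedipine (log2 fold change -0.27, SE 0.08, edgeR adjusted p = 0.00618). Idh1 was not called, at 161, 154 and 171 CPM in Control and 176, 140, 156 and 172 with nifedipine (log2 fold change -0.01, SE 0.08, edgeR adjusted p = 0.953).

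Of the later steps, Mdh2 fell from 273, 282 and 281 CPM in Control to 174, 138, 163 and 176 with nifedipine (log2 fold change -0.78, SE 0.08, edgeR adjusted p = 1.66e-07). Sdhd fell from 156, 163 and 167 CPM to 92.1, 94.3, 101 and 96.2 (log2 fold change -0.75, SE 0.07, edgeR adjusted p = 5.71e-08). Fh1 fell from 112, 108 and 107 CPM to 69.5, 56.5, 69.9 and 68.1 (log2 fold change -0.72, SE 0.08, edgeR adjusted p = 1.14e-06). None of these 3 had overlapping groups. Sdha and Sdhb fell by 0.40 (SE 0.06) and 0.52 (SE 0.08) on the log2 scale. Sdha stood at 606, 557 and 602 CPM in Control and at 452, 421, 454 and 452 with nifedipine, and Sdhb at 125, 121 and 107 CPM in Control and at 79.8, 73.4, 85.9 and 89.0. Sdhc, an anchor of the same complex, was not called, with a log2 fold change of 0.02 (SE 0.09, edgeR adjusted p = 0.878). The 3 subunits of succinyl-CoA ligase fell by 0.38 (Sucla2, SE 0.10), 0.43 (Suclg2, SE 0.07) and 0.50 (Suclg1, SE 0.08).

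Around the cycle, Glud1 rose while both aminotransferases fell. Glud1 was measured at 310, 282 and 285 CPM in Control and at 335, 317, 326 and 334 with nifedipine (log2 fold change 0.17, SE 0.06, edgeR adjusted p = 0.0249). Got2 fell by 0.55 (SE 0.07) and Got1 by 0.24 (SE 0.09, edgeR adjusted p = 0.0419), and Me2 fell by 0.59 (SE 0.07). Mdh1 was measured at 301, 282 and 290 CPM in Control and at 318, 270, 305 and 317 with nifedipine and was not called (log2 fold change 0.06, SE 0.07, edgeR adjusted p = 0.482). Acly was measured at 765, 688 and 758 CPM in Control and at 615, 625, 656 and 686 with nifedipine (log2 fold change -0.19, SE 0.06, edgeR adjusted p = 0.0107).

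The number of members that rose with nifedipine was 2 in the edgeR fit without Control 2 or without Nifedipine 4, since the calls of Mpc1 and Glud1 ended (adjusted p = 0.0950 and 0.109 without Control 2, and 0.0771 and 0.0557 without Nifedipine 4). The edgeR calls also ended without Control 1 (Mpc1, adjusted p = 0.0682), and without Control 3 or Nifedipine 1 (Glud1, adjusted p = 0.103 and 0.0528). In the same edgeR fits, the call of Got1 ended without Control 2 or 3 or Nifedipine 1, 2 or 4 (adjusted p from 0.0574 to 0.147), that of Dlat without Control 1 or Nifedipine 1, 2 or 3 (0.0504 to 0.181) and that of Acly without Control 1 or 3 (0.0524 and 0.0553). With library size set to the read total behind the RPKM values, the edgeR calls of Dlat, Idh2, Got1, Glud1 and Acly ended (adjusted p from 0.0942 for Idh2 to 0.262 for Acly), and Got1 was also not called with a length and GC correction, without the low-count filter or with all groups in 1 fit (adjusted p = 0.228, 0.0589 and 0.252). The genes of dividing cells summed to 3050 to 3208 CPM in Control and to 1959 to 2252 with nifedipine. The HSC-defining sum was higher with nifedipine. The 10 granulocyte, monocyte and macrophage markers summed to 62.2 to 80.5 CPM in Control and to 210 to 233 with nifedipine. Of these, 7 were at 0 reads in Control (Mpo, Elane, Ctsg, S100a8, S100a9, Ly6g and Adgre1) and 4 with nifedipine (Mpo, Elane, S100a8 and S100a9). The sum of the 5 megakaryocyte markers was lower with nifedipine, at 112 to 200 CPM in Control and 36.5 to 47.7 with nifedipine. The erythroid sum was lower too, at 208 to 260 CPM in Control and 106 to 166 with nifedipine (Hba-a2 and Car1 at 0 in both groups). A sum can rest on 1 abundant gene, and changes of single markers are not given. Lymphoid and endothelial and stromal sums overlapped. Their part in the change of the members was not tested.

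**Figure D4:**
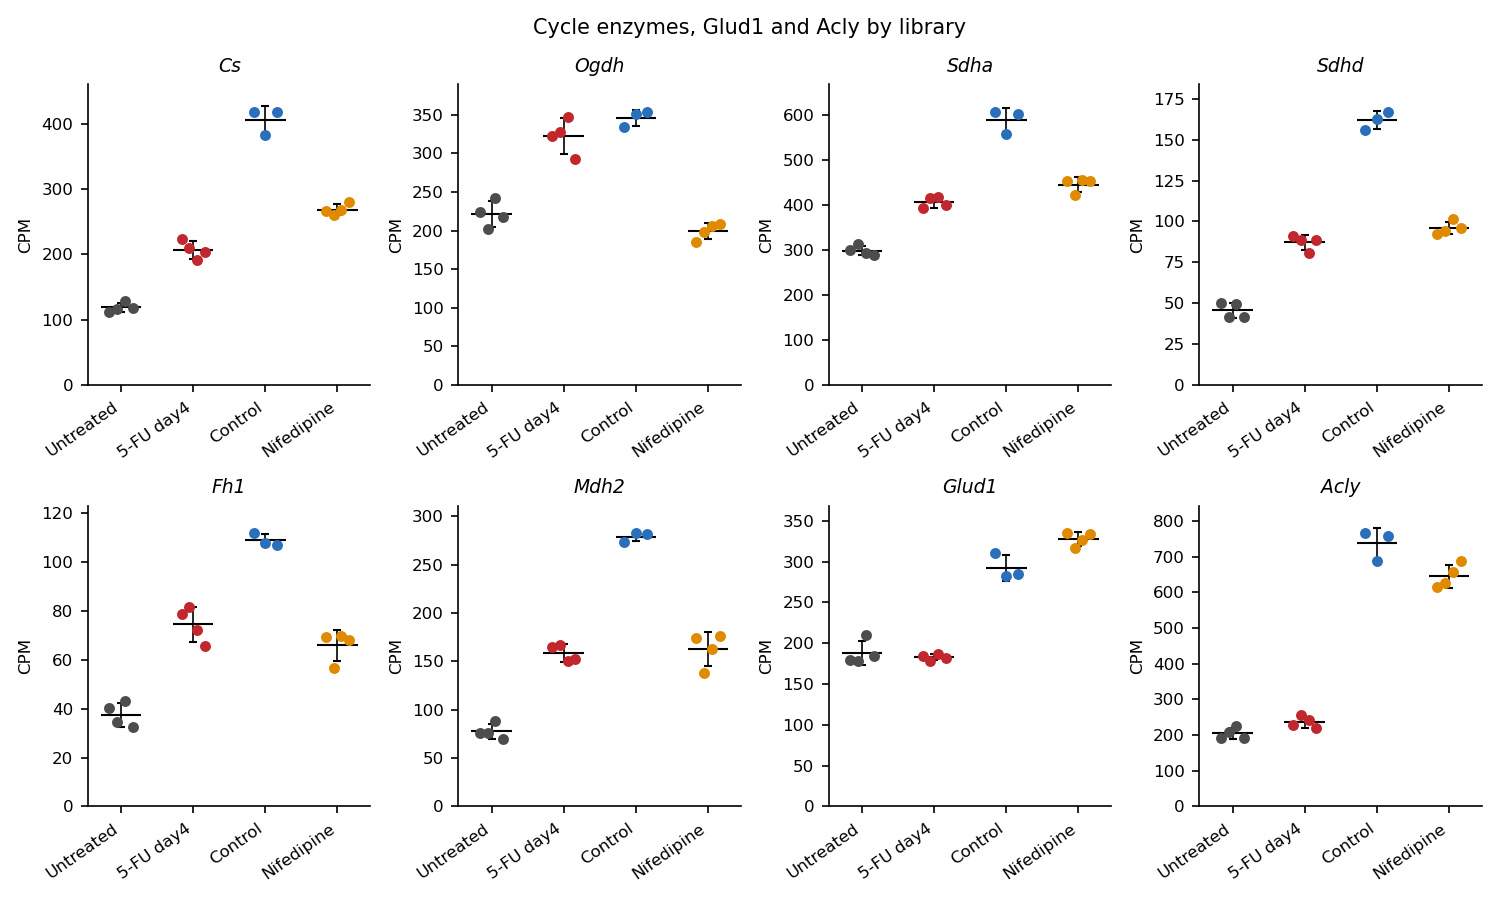
CPM of 6 cycle enzymes, Glud1 and Acly in each library (points), with the group mean and 1 SD (lines and bars), on axes that start at 0. Cs, Sdhd, Fh1 and Mdh2 are lowest in Untreated and highest in Control, Ogdh with nifedipine is near Untreated, and Glud1 is highest with nifedipine.

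The 5-FU and nifedipine comparisons share no library, so their calls can be set side by side. Of the 29 members that rose after 5-FU, 22 fell with nifedipine, 2 (Mpc1 and Pdp1) rose with it and 5 were not called. All 22 that fell with nifedipine were among the 29 that rose after 5-FU. The opposite calls were common over all genes too: of 12577 genes tested in both comparisons, 3554 rose after 5-FU and 57.1% of these fell with nifedipine, against 75.9% of the 29 members. Of the 3071 genes that fell with nifedipine, 66.1% had risen after 5-FU. Whether the share among the members differs from that over all genes was not tested. Pdk2 was the member that fell after 5-FU and rose with nifedipine. Pdk1 and Idh1 fell after 5-FU and were not called with nifedipine. Glud1 rose with nifedipine and was not called after 5-FU, and Pcx and Idh3b were called in neither comparison. Whether the 2 fold changes of a gene differ was not tested.

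The cultured Control cells were set against the Untreated cells to place both experiments on 1 scale. Culture cannot be told apart here from any other difference between these experiments, and the comparison shares its Untreated libraries with the 5-FU comparison and its Control libraries with the nifedipine comparison. In Control, 32 members were higher than in Untreated, 2 were lower and 1, Pcx, was not called, against 35.8% higher and 36.2% lower among 13518 genes tested by edgeR (72.0% in all). The median log2 fold change was 1.03 over the members and -0.05 over all genes. The groups did not overlap in 32 members above and 2 below, where 36.3% and 35.6% of all genes did so (71.9% in all).

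The rises included the largest of any comparison. Got1, at 12.8, 9.10, 16.5 and 7.99 CPM in Untreated, was at 45.1, 51.6 and 50.1 in Control (log2 fold change 2.11, SE 0.21, edgeR adjusted p = 1.38e-05). The Untreated values of Got1 spread the most of any member in that group, with a coefficient of variation of 33.2%. Idh3a was higher by 2.08 (SE 0.10), Mdh2 by 1.90 (SE 0.08), Acly by 1.90 (SE 0.07), Sdhd by 1.87 (SE 0.08) and Cs by 1.82 (SE 0.06) on the log2 scale, from the library values given above. Me2 was measured at 180, 176 and 178 CPM in Control, above every Untreated library (log2 fold change 1.73, SE 0.09, edgeR adjusted p = 2.34e-07). Idh1 was higher in Control by 1.50 (SE 0.09). Pdk2 and Pdk1 were the lower ones. Pdk2 had a log2 fold change of -2.98 (SE 0.27, edgeR adjusted p = 5.80e-06), with 42 or more reads in each library, and Pdk1 one of -0.34 (SE 0.07, edgeR adjusted p = 0.00218). The call of Pdk1 ended in edgeR with library size set to the read total behind the RPKM values (adjusted p = 0.305) and with a length and GC correction (adjusted p = 0.117). That correction also ended the calls of Mpc2, Pdhb, Idh3b and Idh3g here (edgeR adjusted p = 0.265, 0.236, 0.215 and 0.0675). Without Untreated 2 and 4, 31 members were higher and 2 lower, and the edgeR call of Idh3b was lost (adjusted p = 0.0557). The genes of dividing cells summed to 157 to 692 CPM in Untreated and 3050 to 3208 in Control. Without overlap, the HSC-defining, the granulocyte, monocyte and macrophage (62.2 to 80.5 CPM in Control) and the lymphoid sums (0.858 to 18.9 against 0 to 0.104 CPM) were lower in Control and the megakaryocyte sum (112 to 200 CPM) was higher. Their part was not tested.

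Ratios of paired enzymes within a library do not depend on how libraries are scaled, and 14 such ratios were tested with an exact two-sided permutation test over libraries. In both designs the smallest p allowed is 0.0286, so after adjustment over the 14 ratios the test can pass only where several ratios reach it. After 5-FU, 9 of the 14 ratios reached it (adjusted p = 0.0444, exact permutation test), each with groups that did not overlap. These p-values rest on the same libraries as the fold changes above and are not separate evidence. Other gene pairs were not tested, so whether 9 of 14 is unusual is not known. Of single genes, 47.3% had groups that did not overlap after 5-FU.

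The ratio of Idh2 to Idh1, per kilobase of exon, was 1.29, 1.31, 1.83 and 1.21 in Untreated and 5.81, 6.52, 7.99 and 5.12 after 5-FU. The mitochondrial enzyme thus stood 4.52-fold higher relative to the cytosolic one (log2 difference 2.17). Idh3a to Idh3b went from 0.301, 0.334, 0.434 and 0.317 to 0.842, 0.890, 0.774 and 0.723, a log2 difference of 1.23. Mdh2 to Mdh1 went from 0.612, 0.633, 0.683 and 0.553 to 0.943, 1.01, 0.929 and 0.918, a log2 difference of 0.62. In these 3 pairs the mitochondrial or catalytic member gained on its partner in every 5-FU library.

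For the control of PDH, Pdk2 to Pdha1 fell from 0.149, 0.151, 0.138 and 0.169 in Untreated to 0.0491, 0.0414, 0.0385 and 0.0623 after 5-FU (log2 difference -1.69). Pdk1 to Pdha1 fell from 0.316, 0.326, 0.307 and 0.352 to 0.214, 0.201, 0.205 and 0.157 (log2 difference -0.75). Pdk3 to Pdha1 rose from 0.678, 0.805, 0.726 and 0.697 to 0.959, 0.942, 0.857 and 0.875 (log2 difference 0.32). Pdp1 to Pdk1, a phosphatase gene against a kinase gene, rose from 0.583, 0.676, 0.541 and 0.579 to 1.55, 1.74, 1.51 and 1.55, or 2.67-fold (log2 difference 1.42). That ratio takes in neither the phosphatase Pdp2, which fell after 5-FU, nor the kinase Pdk3, which rose. All 4 of these ratios kept the Untreated and 5-FU libraries apart. Acly to Cs fell from 1.09, 1.15, 1.11 and 1.04 to 0.649, 0.777, 0.805 and 0.685 (log2 difference -0.59), and Sdha to Sdhb fell by 0.46. The other 5 ratios, which were Mpc2 to Mpc1, Idh3g to Idh3b, Sucla2 to Suclg2, Got2 to Got1 and Pcx to Pdha1, had overlapping groups and did not pass, with log2 differences between -0.20 and 0.15.

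With nifedipine none of the 14 ratios passed after adjustment (lowest adjusted p = 0.08, exact permutation test), although 10 had groups that did not overlap and 5 reached the smallest unadjusted p of 0.0286. Here 51.2% of single genes had groups that did not overlap, and other gene pairs were not tested. Pdk2 to Pdha1 was 0.0151, 0.00839 and 0.00786 in Control and 0.0290, 0.0257, 0.0272 and 0.0315 with nifedipine (log2 difference 1.50). Pdp1 to Pdk1 was 1.05, 1.40 and 0.953 in Control and 2.36, 2.45, 1.79 and 1.75 with nifedipine (log2 difference 0.88). That ratio takes in neither the kinase Pdk2, which rose with nifedipine, nor the phosphatase Pdp2, which fell. It also leaves out the kinase Pdk3, which was not called. Mdh2 to Mdh1 was 1.39, 1.53 and 1.48 in Control and 0.835, 0.778, 0.818 and 0.848 with nifedipine (log2 difference -0.84). Idh3a to Idh3b was 1.22, 1.24 and 1.18 in Control and 0.826, 0.848, 0.886 and 0.706 with nifedipine (log2 difference -0.58). Acly to Cs was 1.17, 1.15 and 1.16 in Control and 1.48, 1.53, 1.56 and 1.57 with nifedipine (log2 difference 0.41). Idh2 to Idh1 overlapped, at 0.974 to 1.09 in Control and 0.697 to 0.985 with nifedipine (log2 difference -0.26, p = 0.143, exact permutation test).

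**Figure D5:**
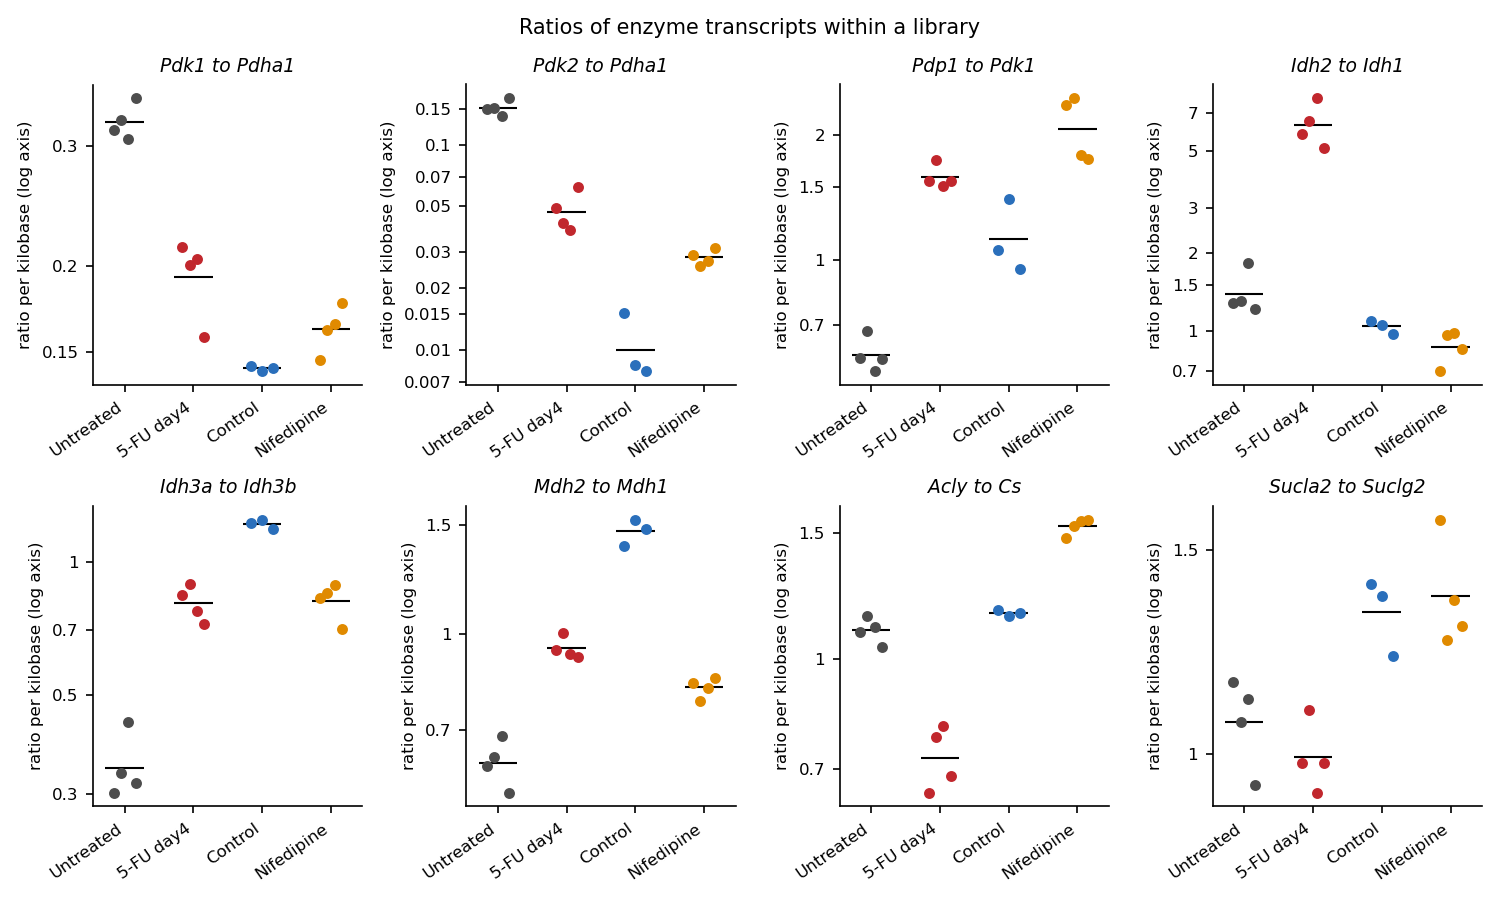
Ratios of 8 enzyme pairs per kilobase of exon in each library (points, log axis), with the geometric mean of each group (line). Idh2 to Idh1 is highest after 5-FU, Pdk2 to Pdha1 falls from Untreated through 5-FU and Nifedipine to Control, and Sucla2 to Suclg2 overlaps within both tested pairs of groups.

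Beyond the members, 63 genes of neighbouring reactions were listed, among them lactate dehydrogenases, amino acid carriers and glutamine-using enzymes of nucleotide synthesis, and 61 were tested by edgeR (Me3 and Pck1 had too few reads). After 5-FU 24 rose and 10 fell (34 and 7 with library size set to the read total behind the RPKM values), with nifedipine 15 rose and 20 fell, and 35 were higher and 10 lower in Control than in Untreated. As shares of those tested, 39.3% and 16.4% were called higher and lower after 5-FU, 24.6% and 32.8% with nifedipine, and 57.4% and 16.4% in Control against Untreated. Over all genes tested, the shares were 26.8% and 23.8%, 25.8% and 24.2%, and 35.8% and 36.2%, so that the share of listed genes higher with nifedipine was no more than that over all genes.

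Glutamine can enter the cycle once its amide group has been removed to give glutamate. Gls2, a glutaminase, lay near the limit of detection, at 0.33 ± 0.10 CPM (SD, n = 4) in Untreated and 1.88 ± 0.76 (SD, n = 4) after 5-FU (log2 fold change 2.55, SE 0.49). With nifedipine Gls2 was lower (log2 fold change -1.44, SE 0.55, edgeR adjusted p = 0.0385), a call that ended without Control 2 or 3 or Nifedipine 1, 2 or 3 (adjusted p from 0.0563 to 0.129) or when libraries were scaled by the RPKM read total (adjusted p = 0.053). Glul, glutamine synthetase, which makes glutamine from glutamate, fell after 5-FU from 378, 360, 285 and 449 to 198, 197, 223 and 213 CPM (log2 fold change -0.79, SE 0.11, edgeR adjusted p = 0.00023). It was lower still in Control, at 118, 123 and 123 CPM, and at 136, 132, 133 and 139 with nifedipine it was not called against Control (log2 fold change 0.16, SE 0.06, edgeR adjusted p = 0.0538), whereas DESeq2 and limma-voom called it higher (adjusted p = 0.0417 and 0.0492), as did edgeR with the length and GC correction (adjusted p = 0.0103) and on the features as deposited (adjusted p = 0.0483).

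At the branch between lactate and mitochondrial pyruvate, Ldha, the lactate dehydrogenase subunit that favours lactate, rose after 5-FU by 1.21 (SE 0.06) and fell with nifedipine by 1.01 (SE 0.06) on the log2 scale. Its levels were 381 ± 36.8 CPM (SD, n = 4) in Untreated, 866 ± 21.6 (SD, n = 4) after 5-FU, 1730 ± 32.1 (SD, n = 3) in Control and 859 ± 78.0 (SD, n = 4) with nifedipine. Slc16a1, a monocarboxylate carrier that moves lactate and pyruvate across the cell membrane, rose by 1.38 (SE 0.10) after 5-FU and fell by 1.08 (SE 0.06) with nifedipine. Ldhb, the other lactate dehydrogenase subunit, rose by 1.00 (SE 0.11) with nifedipine and was lower in Control than in Untreated (log2 fold change -1.69, SE 0.11). After 5-FU Ldhb was called lower, with overlapping groups (log2 fold change -0.28, SE 0.09, edgeR adjusted p = 0.0235). Enzymes that spend glutamine nitrogen on nucleotides, Cad, Ppat and Pfas, rose by 1.33, 1.11 and 1.17 after 5-FU and fell by 1.11, 0.61 and 0.72 with nifedipine.

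Gpt2, the mitochondrial alanine aminotransferase, which links pyruvate and alanine to glutamate and alpha-ketoglutarate, had the largest rise of the 61 genes with nifedipine. It was measured at 8.67, 9.86 and 6.39 CPM in Control and at 54.1, 49.3, 51.1 and 45.4 with nifedipine (log2 fold change 2.59, SE 0.14, edgeR adjusted p = 1.66e-10). Untreated and 5-FU libraries of Gpt2 lay between 5.97 and 11.6 CPM, so that the Nifedipine libraries stood alone. Asns, asparagine synthetase, which uses aspartate and glutamine, rose with nifedipine by 1.05 (SE 0.07) and Pck2, the mitochondrial enzyme that turns oxaloacetate into phosphoenolpyruvate, by 0.74 (SE 0.08). The carriers Slc1a5 (glutamine) and Slc25a11 (malate and alpha-ketoglutarate) rose by 0.51 (SE 0.07) and 0.47 (SE 0.08). Other listed carriers went both ways. Slc38a2 rose by 0.18 (SE 0.06), and Slc38a1, also a glutamine carrier, fell by 0.26 (SE 0.06). The mitochondrial carriers Slc25a1, Slc25a10 and Slc25a12 fell by 0.24 (SE 0.08), 0.62 (SE 0.16) and 0.23 (SE 0.08).

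The remaining genes named by smallest p after 5-FU were Psat1 (1.52), a serine synthesis aminotransferase, among those that rose, and D2hgdh (-0.68), Prodh (-0.73), Acss2 (-0.52), Acss1 (-0.72) and Ppargc1a (-0.87) among those that fell, as log2 fold changes. Ppargc1a is a coactivator known to drive mitochondrial genes. It stood at 16.1 ± 3.06 CPM (SD, n = 4) in Untreated, 8.62 ± 1.83 (SD, n = 4) after 5-FU and 1.28 ± 0.19 (SD, n = 3) in Control (log2 fold change -3.60, SE 0.25, Control against Untreated). Its more abundant relative Ppargc1b rose after 5-FU, from a mean of 46.7 to 65.5 CPM (log2 fold change 0.51, SE 0.10, edgeR adjusted p = 0.00163). Nrf1 and Gabpa also rose after 5-FU, by 0.28 (SE 0.06) and 0.40 (SE 0.05), and Esrra was not called (-0.11, SE 0.21). Slc7a5, an exchanger that imports large amino acids, was higher in Control by 3.08 (SE 0.14), Slc16a1 by 2.73 (SE 0.10), Psat1 by 2.95 (SE 0.10) and Ldha by 2.23 (SE 0.07). Sirt5, D2hgdh and Glul were lower there, with log2 fold changes of -1.63 (SE 0.22), -1.04 (SE 0.10) and -1.55 (SE 0.14). Pdk4, a further PDH kinase, was lower in Control (log2 fold change -4.23, SE 0.81, edgeR adjusted p = 0.00108), at 0.169, 0.980 and 0.520 CPM against 7.97, 21.5, 2.40 and 11.4 in Untreated. The Untreated libraries of Pdk4 spread widely, and after 5-FU, at 5.91, 7.91, 10.8 and 7.54 CPM, it was not called (log2 fold change -0.37, SE 0.50, edgeR adjusted p = 0.566).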

How the data were processed

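RNA-seq libraries from 100 sorted HSCs each were analysed in 4 groups. Per the file headers, the authors deposited exon read counts and RPKM values per gene, and per the submitters' processing notes the genome was mm10. The sources used here do not give the aligner or counter, and the Nextera XT kit does not mark strand. Copies of 1 gene were added up, giving 46102 genes. Counts were tested with edgeR 4.0.16 (TMM, filterByExpr, quasi-likelihood F test, Benjamini-Hochberg over all genes, called at 0.05 or less), with the libraries of each comparison only, and the fits were tested on simulated data. SE is the log2 fold change over the square root of F. CPM use 1 TMM scaling over all 15 libraries. Alternatives were DESeq2 1.42.0, limma-voom (limma 3.58.1), no filter, the RPKM read total, a length and GC correction, features as deposited, all groups in 1 fit, the replicate block and leaving out libraries. Members and lists were chosen with earlier results of these data known. Members were named in full where they had the 8 largest called changes of a comparison, went against most members or belonged to a ratio that passed, and pathway genes by smallest p (6 in each direction) or a direct role on glutamine. Some pathway genes were named after their values were seen. They were Pdk4 and Ldhb after 5-FU, Pdp2, Ppargc1b, Nrf1, Gabpa and Esrra, and the carriers Slc38a1, Slc38a2, Slc25a1, Slc25a10 and Slc25a12. Some listed pathway genes are counted but not reported here by name.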

Additional observations from a re-analysis of the deposited data

Results flagged for a closer look

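Of 105 groups of 4 libraries over the members and 42 over the ratios, 5 held a library whose distance to its nearest neighbour exceeded the Dixon critical value of 0.829 of the group's range. Chance alone flags about 1 in 20 groups. Pdhx after 5-FU reached 32.5 CPM in 1 library, where the others lay at 30.5, 30.5 and 30.7. Sucla2 was at 81.4 CPM in Nifedipine 1, where the others lay at 64.5, 66.8 and 67.3. Sdha was at 421 CPM in Nifedipine 2, below 452, 452 and 454, and Fh1 was at 56.5 CPM in the same library, below 68.1, 69.5 and 69.9. The Idh2 to Idh1 ratio was 1.83 in Untreated 3, where the other Untreated libraries lay at 1.21, 1.29 and 1.31.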

How the results depend on the processing

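Calls held under every alternative run for 26 of 32 called members after 5-FU, 20 of 26 with nifedipine and 29 of 34 in Control against Untreated. With library size set to the read total behind the RPKM values, the median member log2 fold change was 0.77 after 5-FU, -0.28 with nifedipine and 1.27 in Control against Untreated, where 1 member was lower, and the median of all genes moved from -0.02 to 0.17, from 0.02 to 0.06 and from -0.05 to 0.19. With that library size Glud1 after 5-FU had a log2 fold change of 0.18 (edgeR adjusted p = 0.0468). In Control against Untreated the median of all genes was also -0.21 without the filter on low counts and -0.13 with all groups in 1 fit. With a length and GC correction the member medians were 0.43 after 5-FU and 0.86 in Control against Untreated, where again 1 member was lower, and the log2 fold changes of Mpc2 (-0.047 after 5-FU, -0.22 in Control against Untreated) and Idh3b (-0.10 in Control against Untreated) changed sign without being called. The cause of these moves was not tested. Leaving out Untreated 2 and 4, chosen after seeing the data, gave a median of 0.50 after 5-FU. Leaving out 1 library at a time gave 24 to 28 members higher after 5-FU, 2 to 4 higher and 20 to 21 lower with nifedipine, and 32 higher and 2 lower in Control against Untreated. Whether same-numbered libraries shared an animal or culture is not stated. The correlations of their deviations from the group means lay between -0.15 and 0.15. Those of other pairs reached from -0.42 (Untreated 3 with 5-FU day4 4) to 0.36 (Untreated 2 with 5-FU day4 4). With 3 or 4 libraries in a group, such correlations cannot decide the matter. With the replicate block, 28 members rose and 3 fell after 5-FU (Pdhb was lost, edgeR adjusted p = 0.0587), Mpc1 and Got1 were lost with nifedipine (edgeR adjusted p = 0.0545 and 0.0642), and none was lost in Control against Untreated. Depth limits Pcx most, with 20 reads in its lowest library.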
